A study of Eriocheir sinensis with 6 samples.

Results

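The regions described here are the peaks of open chromatin at gene ends, the merged peaks that the authors' annotation placed in a 3' UTR or just downstream of a gene. They were all merged peaks on the assembled sequences (names beginning with CM) whose annotation began with 3' UTR or Downstream. Of 104657 merged peaks, 2194 met this rule, 674 in a 3' UTR and 1520 downstream. The downstream class reaches 3 kb past a gene and was split by the annotation into 514 peaks under 1 kb, 474 at 1 to 2 kb and 532 at 2 to 3 kb. The rule used position only, and the difference between the stages did not enter it. A further 139 gene-end peaks on unplaced scaffolds were left out.

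Muscle of Eriocheir sinensis, the Chinese mitten crab, was profiled with ATAC-seq, where a transposase (Tn5) tags accessible stretches of the genome for sequencing. Post-molt muscle (A stages) was compared with pre-molt muscle (D stages), with 3 libraries per stage, to find where chromatin differed on either side of the shed. The crabs were healthy farmed juveniles without any treatment or genetic change, and the muscle of each crab was collected separately; their sex and exact sub-stage are not given by the labels. Muscle tissue holds several cell types, and ATAC-seq of whole tissue cannot tell a change within cells apart from a change in their proportions.

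The 3' UTR is the part of a messenger RNA that follows the stop codon. It carries the signals for cleavage and polyadenylation and many of the sites through which RNA-binding proteins and microRNAs act on stability and translation. Its DNA, and the DNA beyond it where transcription terminates, can also be open, and regulatory elements of the same or of a neighbouring gene may lie there. In crustaceans, ecdysteroid hormones drive the molt cycle, and claw muscle shrinks before the shed and is rebuilt after it. The deposited tables pair the linked gene identifiers with no gene names, so the peaks are given by position and gene function is not described. The study names a few receptor genes by identifier, and none of those was linked to a gene-end peak. None of the marker genes of muscle or of other cell types could therefore be looked up to check the tissue label.

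The library totals lay between 41050903 and 51652893 reads, of which 10992785 to 16985168 fell in merged peaks. Pre-molt 2 stood apart, with 36.7% of its reads in merged peaks, against 24.7% to 26.3% in the 3 post-molt libraries and 23.8% and 27.9% in the other pre-molt libraries. Values are given as CPM, read counts scaled to library size with TMM factors, and changes as the log2 of post-molt over pre-molt. A peak was called at a Benjamini-Hochberg adjusted p under 0.05 in edgeR's quasi-likelihood test over all merged peaks.

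Gene-end peaks were modest in strength. The median 3' UTR peak held 49.8 reads per library and the median downstream peak 48.6, against 52.2 over all merged peaks and 82.2 over promoter peaks. Their median widths were 318 bp in 3' UTRs and 316 bp downstream, against 347 bp over all merged peaks. Most were not shared by all crabs. Only 44 of the 3' UTR peaks (6.53%) and 185 of the downstream peaks (12.2%) were called as a peak in each of the 6 libraries, against 19.1% of all merged peaks. A peak in 1 library only accounted for 363 3' UTR peaks (53.9%) and 761 downstream peaks (50.1%), against 42.3% of all merged peaks. The reads of every library were counted at each position, whether or not it had a peak there, and no gene-end peak was without reads in a whole stage.

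Post-molt muscle had 81 called 3' UTR peaks and 148 called downstream peaks. Over all merged peaks 9.95% were called, 6.08% higher and 3.86% lower post-molt. Among 3' UTR peaks, 50 (7.42%) were called higher and 31 (4.60%) lower. Among downstream peaks, 82 (5.39%) were called higher and 66 (4.34%) lower. Both classes together, with 6.02% higher and 4.42% lower, were thus close to the share over all merged peaks. The median log2 change of called peaks was 1.55 for higher and -1.64 for lower 3' UTR peaks, and 1.60 and -1.46 for higher and lower downstream peaks. The higher counts depended on single libraries. Without post-molt 2, 16 3' UTR and 32 downstream peaks were called higher, and without pre-molt 3 there were 24 and 37. Without pre-molt 3, 26 3' UTR and 51 downstream peaks were called lower, so that lower calls outnumbered higher calls in both classes. Over all merged peaks that fit called 2.82% higher and 2.80% lower, so the balance moved there too. Without pre-molt 2, 31 3' UTR peaks were called higher. The lower counts were 19 and 23 without post-molt 2, while 29 downstream peaks were called lower without post-molt 3 and 43 without pre-molt 2. Calls over all merged peaks also became fewer in these fits, to 2.29% higher and 1.53% lower without post-molt 2. Of the 132 higher peaks, 82 had their highest CPM in post-molt 2. Of the same 132, 72 were called as a peak in 1 library only, 29 in 3' UTRs and 43 downstream. Over all merged peaks this was so for 2704 of the 6366 higher peaks.

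**Figure D1:**
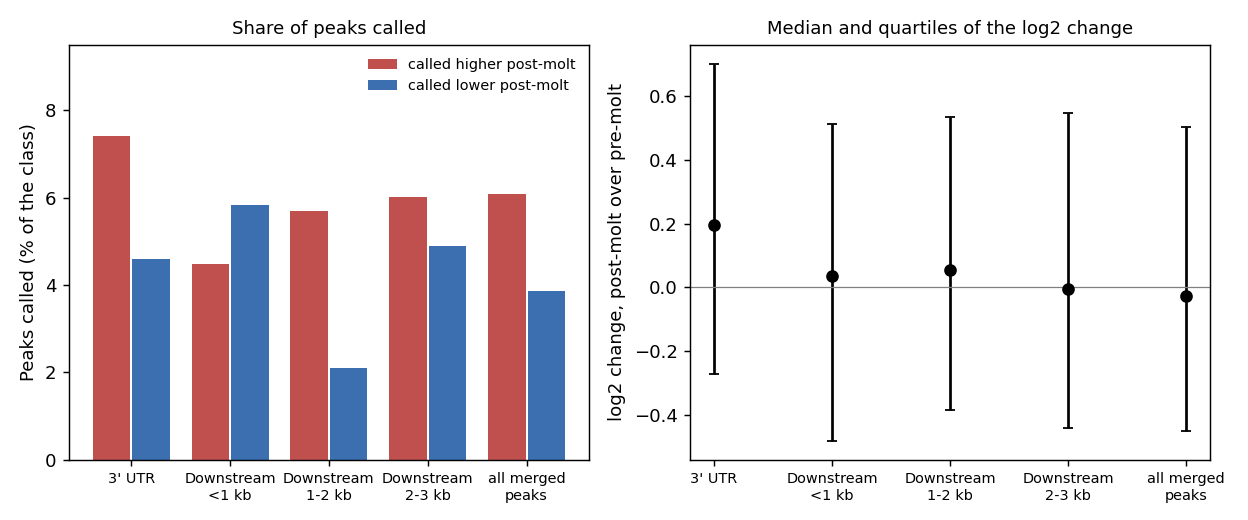
The left panel gives the percentage of peaks called higher (red) or lower (blue) post-molt in the 3' UTR class, the 3 downstream distance classes and all merged peaks. The right panel gives the median (point) and quartiles (bars) of the log2 change, post-molt over pre-molt, which in 3' UTR peaks had a median of 0.20 and over all merged peaks -0.03.

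The 3' UTR class was shifted slightly towards higher accessibility post-molt. Its median log2 change was 0.20, against -0.03 over all merged peaks, and 408 of 674 peaks (60.5%) had a positive change, against 48.3% of all merged peaks. The downstream median was 0.03, with 52.2% of changes positive. For comparison, the median was 0.10 for intron, 0.09 for exon, -0.03 for promoter and -0.05 for distal intergenic peaks. The difference between the 3' UTR median and the median of all merged peaks lay between 0.16 and 0.26 under every scaling and with any 1 library left out. When libraries were centred on the median of all peaks, that median itself moved to -0.15, the 3' UTR median was 0.08 and the downstream median -0.09. Under that centring, calls were higher rather than lower in 47.4% of called 3' UTR peaks (61.7% with TMM) and in 45.3% of called downstream peaks (55.4% with TMM). These medians are descriptions without a test. Restricted to peaks present in at least 2 libraries, the 3' UTR median was 0.07 and the downstream median -0.04. The median of all merged peaks under this restriction is not given here, and the range of differences above does not cover it.

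Library by library, 3' UTR peaks took 0.554%, 0.594% and 0.564% of the reads in merged peaks in post-molt 1, 2 and 3, against 0.557%, 0.429% and 0.520% in pre-molt 1, 2 and 3. The stages overlapped, and pre-molt 2 was the lowest. Downstream peaks took 1.23%, 1.24% and 1.22% in post-molt libraries, against 1.23%, 1.18% and 1.18% in pre-molt libraries. Peaks of a library's own were found at 186, 264 and 217 3' UTR positions in post-molt 1, 2 and 3, against 201, 274 and 264 in pre-molt 1, 2 and 3. At downstream positions there were 531, 625 and 532 in post-molt libraries, against 555, 690 and 677 in pre-molt libraries. Across libraries these were 27.6% to 40.7% of 3' UTR peaks and 34.9% to 45.4% of downstream peaks, against 42.7% to 50.3% of all merged peaks. Presence at all 3 libraries of one stage and none of the other was rare. In post-molt libraries only, 9 3' UTR (1.34%) and 17 downstream peaks (1.12%) were present, against 1.40% of all merged peaks. In pre-molt libraries only, 15 (2.23%) and 27 (1.78%) were present, against 1.68% of all merged peaks.

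Peaks whose 3 post-molt CPM values all lay on one side of the 3 pre-molt values were also counted. Among 3' UTR peaks, 159 (23.6%) lay higher and 68 (10.1%) lower post-molt, against 15.0% and 12.1% of all merged peaks. Among downstream peaks, 236 (15.5%) lay higher and 189 (12.4%) lower. The shares were 20.0% and 12.1% of intron peaks and 16.7% and 9.80% of exon peaks, so an excess of higher peaks was not particular to 3' UTRs.

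The direction of the calls differed with the strength of the peak. All merged peaks were divided into 3 equal classes by mean read count, with limits of 36.3 and 82.8 reads. In the weakest class, 10 3' UTR peaks (4.50%) were called higher and none lower. In the strongest class 18 (9.63%) were called higher and 21 (11.2%) lower. Among downstream peaks the weakest class held 9 higher (1.64%) and 4 lower calls (0.727%). The strongest held 34 higher (7.44%) and 43 lower (9.41%). Over all merged peaks the weakest class had 3.97% called higher and 0.645% lower, and the strongest 5.42% and 8.41%. In both gene-end classes, as over all merged peaks, lower calls were the more frequent among strong peaks. The share called higher did not run alike. From the middle to the strongest class it went from 8.30% to 9.63% in 3' UTR peaks and from 7.60% to 7.44% in downstream peaks. Over all merged peaks it went from 8.85% to 5.42%. This difference was not tested.

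Downstream peaks nearest to the gene end had fewer higher calls than lower calls. Under 1 kb, 23 (4.47%) were called higher and 30 (5.84%) lower, against 27 (5.70%) and 10 (2.11%) at 1 to 2 kb. At 2 to 3 kb, 32 (6.02%) were called higher and 26 (4.89%) lower. Over all merged peaks 6.08% were called higher and 3.86% lower. A listed gene end lay within 3 kb of 1483 downstream peaks. In steps of 500 bases past it, higher calls of these peaks numbered 11, 13, 16, 13, 12 and 16 and lower calls 16, 15, 4, 5, 11 and 15. The medians of the steps lay between -0.06 and 0.12, without a steady trend with distance. The difference between these distance classes was not tested. In 133 downstream peaks the ends of genes on both strands lay within 3 kb, that is, between converging genes. Of these, 10 (7.52%) were called higher and 4 (3.01%) lower, against 5.19% and 4.47% of the other 1387 downstream peaks. Their median log2 change was 0.28, against 0.01 for those others.

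**Figure D2:**
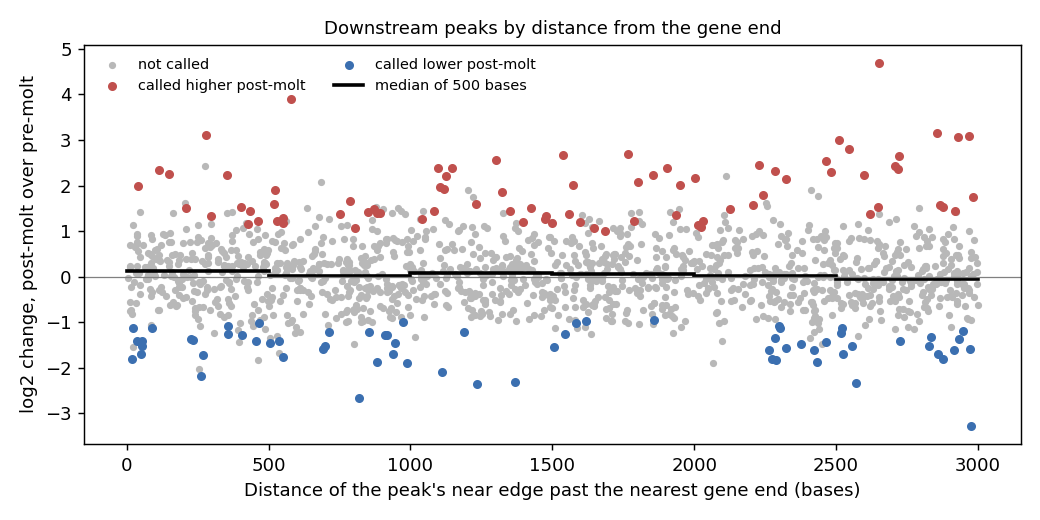
Each point is a downstream peak, placed by the distance of its near edge past the nearest listed gene end (x, bases) and its log2 change, post-molt over pre-molt (y). Red points were called higher, blue points lower and grey points not called, and the black lines, the medians of steps of 500 bases, stay between -0.06 and 0.12.

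The 3' UTR peaks with the greatest increases were low in every pre-molt library. The peak at CM024122.1, positions 124751 to 125988, had 16.8, 67.6 and 21.6 CPM in post-molt 1, 2 and 3, against 3.33, 1.61 and 1.83 CPM in pre-molt 1, 2 and 3. Its log2 change was 3.97 ± 0.48 (SE, n = 3 each), with an edgeR adjusted p of 8.01e-05. A further peak on that sequence, at 128045 to 128298, had 4.99, 19.9 and 6.52 CPM post-molt against 0.649, 1.82 and 1.13 CPM pre-molt, a log2 change of 3.10. In both, post-molt 2 was the highest library. Each post-molt library was above each pre-molt library, as the choice of peaks required.

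The widest of these peaks lay at CM024146.1, positions 21151984 to 21153799. It had 33.8, 101 and 36.5 CPM in post-molt 1, 2 and 3, against 6.57, 4.69 and 5.05 CPM in pre-molt 1, 2 and 3, a log2 change of 3.40 ± 0.41 (SE, n = 3 each; edgeR adjusted p = 7.74e-05). The peak at CM024141.1, positions 10920877 to 10921122, had 6.54, 28.6 and 8.27 CPM post-molt against 1.95, 0.49 and 2.00 CPM pre-molt, a log2 change of 3.31. The remaining peaks of the 6 with the greatest increases belonged to gene evm.TU.CM024153.1.209, described with its downstream peak. All 6 stayed called under every alternative tried, and post-molt 2 was the highest library in each. The peak at CM024146.1 and the one at 124751 on CM024122.1 were called as a peak in all 3 post-molt libraries. The other peaks of the 6 were called as a peak in post-molt 2 only, and so entered the merged set through their highest library. None of the 6 was called as a peak in a pre-molt library. The merged set stayed fixed in each alternative, so staying called is no separate support.

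The 6 3' UTR peaks with the greatest decreases were low in every post-molt library, while their pre-molt libraries spread more widely. The peak at CM024139.1, positions 11467758 to 11468782, had 4.22, 5.36 and 3.09 CPM in post-molt 1, 2 and 3, against 59.9, 8.96 and 30.4 CPM in pre-molt 1, 2 and 3. Its log2 change was -2.96 ± 0.48 (SE, n = 3 each; edgeR adjusted p = 0.000717). The next peak on that sequence, at 11469122 to 11469720, fell by 2.39 on the log2 scale, with 4.56, 3.94 and 4.09 CPM post-molt against 40.8, 5.53 and 19.7 CPM pre-molt. In both, pre-molt 2 was the lowest of the pre-molt libraries but still above all post-molt libraries, as the choice of peaks required. The other 4 of the 6 peaks with the greatest decreases were linked to gene evm.TU.CM024115.1.298.

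**Figure D3:**
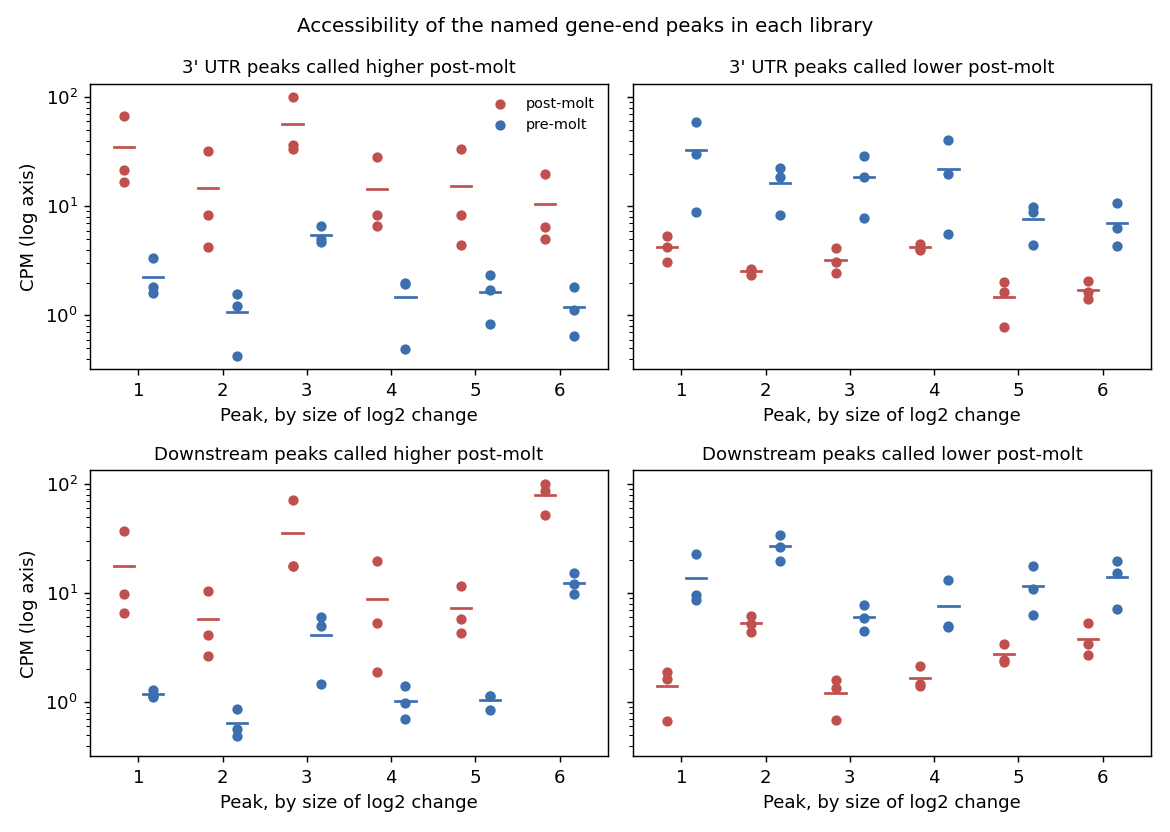
CPM (log axis) in each library of the 6 peaks with the greatest increase and the 6 with the greatest decrease in each class, ordered from left to right by the size of the log2 change. Post-molt libraries (red) stand left of pre-molt libraries (blue), bars mark the means of 3 libraries, and the stages do not overlap in any of these peaks, since the choice of peaks required it.

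Downstream peaks with the greatest increases included weak and strong ones. The peak at CM024145.1, positions 22339486 to 22339700, had 2.67, 10.5 and 4.09 CPM in post-molt 1, 2 and 3, against 0.568, 0.49 and 0.87 CPM in pre-molt 1, 2 and 3 (log2 change 3.16 ± 0.53 SE, edgeR adjusted p = 0.000948). A peak on CM024153.1, positions 6880248 to 6881492, had 17.6, 71.6 and 17.9 CPM post-molt against 6.08, 1.47 and 4.96 CPM pre-molt, a log2 change of 3.10. The peak at CM024132.1, positions 3760652 to 3761156, with 1.89, 19.5 and 5.26 CPM post-molt against 0.974, 1.40 and 0.696 CPM pre-molt, rested on post-molt 2, since its edgeR adjusted p was 0.0824 without that library. Not every increase was greatest in post-molt 2. The strongest peak of this set, at CM024150.1, positions 3666499 to 3667255, had 100.4, 52.5 and 86.7 CPM post-molt against 15.3, 12.2 and 9.74 CPM pre-molt. Its log2 change was 2.69 ± 0.34 (SE, n = 3 each; edgeR adjusted p = 9.64e-05), and post-molt 2 was the lowest post-molt library.

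Downstream peaks that fell lay in each of the 3 distance classes. The peak at CM024134.1, positions 20435998 to 20436591, had 1.64, 1.89 and 0.668 CPM in post-molt 1, 2 and 3, against 22.9, 9.66 and 8.61 CPM in pre-molt 1, 2 and 3. Its log2 change of -3.28 ± 0.46 (SE, n = 3 each; edgeR adjusted p = 0.000239) was the greatest decrease among all gene-end peaks. The peak at CM024099.1, positions 10448277 to 10448733, had 5.25, 6.23 and 4.43 CPM post-molt against 33.8, 19.9 and 26.6 CPM pre-molt, a log2 change of -2.33. The peak at CM024165.1, positions 12866673 to 12866988, had 0.689, 1.34 and 1.59 CPM post-molt against 7.71, 5.88 and 4.52 CPM pre-molt, a log2 change of -2.31. Each of these peaks stayed called with any 1 library left out. All were called as a peak in pre-molt libraries only, so they entered the merged set through the stage where they were high. Since that set was not remade without a library, these fits are no separate support.

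The strongest gene-end peaks changed less than the peaks above, which were chosen for the greatest change. Each of them had a negative log2 change below the lower quartile of its class, -0.27 in 3' UTRs and -0.44 downstream. The 3' UTR peak with the most reads, 3455 bp wide at CM024144.1, positions 9963501 to 9966955, had 333, 232 and 328 CPM in post-molt 1, 2 and 3, against 405, 166 and 611 CPM in pre-molt 1, 2 and 3. The stages overlapped and the test did not call it (log2 change -0.40 ± 0.36 SE, edgeR adjusted p = 0.54), but without pre-molt 2 it was called lower (edgeR adjusted p = 0.0353). The 3' UTR peaks next in strength, at CM024166.1, positions 8767020 to 8769159, and CM024123.1, positions 2182576 to 2184562, had log2 changes of -0.94 and -0.54 and were not called either, although DESeq2 called the peak on CM024166.1 lower (adjusted p = 0.0196). Of the 3 strongest downstream peaks, 1 was called lower by edgeR. DESeq2 also called the one at CM024125.1, positions 1131911 to 1133414, lower (log2 change -0.94 in edgeR, adjusted p = 0.0526 in edgeR and 0.0164 in DESeq2). The peak called by edgeR lay at CM024099.1, positions 2237979 to 2239291, and had 59.6, 82.5 and 82.0 CPM post-molt against 189.9, 240.4 and 150.1 CPM pre-molt. Its log2 change was -1.37 ± 0.30 (SE, n = 3 each; edgeR adjusted p = 0.00565), and without post-molt 1 the adjusted p was 0.0522. Per kb of peak, it stood at 56.9 CPM post-molt and 147 CPM pre-molt.

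The 2194 peaks were linked to 1677 genes by the nearest start site, and 388 genes had more than 1 of them. There were 181 genes with a called peak and 34 with at least 2 called peaks. In 17 of these all called peaks were higher, in 16 all were lower, and 1 gene had both. In 51 genes that ended or held both a 3' UTR and a downstream peak, the mean changes of both classes had the same sign in 40, and no gene was called higher in one class and lower in the other.

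Gene evm.TU.CM024153.1.209 was more accessible post-molt at its end, inside it and at its promoter. Its 2 3' UTR peaks and its downstream peak together had 15.2, 102 and 26.4 CPM in post-molt 1, 2 and 3, against 4.06, 2.38 and 5.22 CPM in pre-molt 1, 2 and 3. Post-molt 2 was the highest library. Each post-molt library was above each pre-molt library, which the rule for the peaks with the greatest increases required of all 3. The downstream peak, at positions 6923610 to 6924059, had a log2 change of 3.90 ± 0.53 (SE, n = 3 each; edgeR adjusted p = 0.000197), and the 3' UTR peaks, at 6924550 to 6924930 and 6925192 to 6925559, had changes of 3.81 and 3.24. Of the 12 merged peaks linked to the gene, 11 were called higher, its promoter peak among them. All 3 gene-end peaks stayed called whichever library was left out. Each was called as a peak in post-molt 2 only, its highest library, and was in the merged set only through that library. Leaving a library out did not remake the merged set, so these fits are no separate support.

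Gene evm.TU.CM024119.1.719 was less accessible post-molt at its end, while its promoter peaks were not called. A 3' UTR peak across its end and 4 downstream peaks, within 3373 bp, together had 23.6, 18.1 and 23.8 CPM in post-molt 1, 2 and 3, against 103, 35.6 and 80.5 CPM in pre-molt 1, 2 and 3. The 5 changes lay between -1.89 and -1.54, with edgeR adjusted p of at most 0.0131. Of the 25 peaks linked to the gene, 11 were called lower and none higher. Without pre-molt 1 or pre-molt 3, 3 of the 5 gene-end peaks stayed called.

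**Figure D4:**
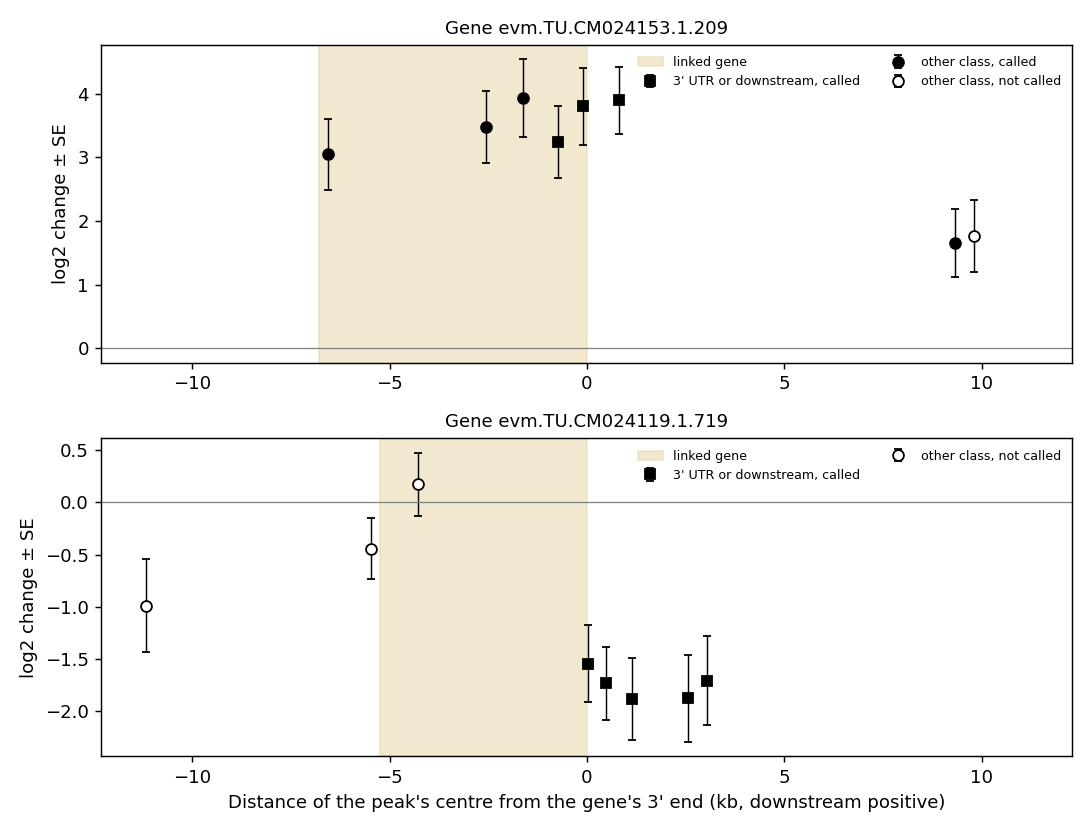
The log2 change (post-molt over pre-molt, bars ± SE) of every merged peak within 12 kb of the 3' end of 2 genes, by the distance of its centre from that end (x, kb, downstream positive). Squares are 3' UTR or downstream peaks, circles other classes, filled symbols were called and the shaded band is the linked gene: all peaks in and just past gene evm.TU.CM024153.1.209 lie above 3, and the 5 gene-end peaks of gene evm.TU.CM024119.1.719 lie between -1.89 and -1.54.

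Gene evm.TU.CM024115.1.298 had 5 called 3' UTR peaks, all lower, the most of any gene. Together they had 12.4, 10.7 and 12.03 CPM in post-molt 1, 2 and 3, against 32.0, 80.6 and 68.6 CPM in pre-molt 1, 2 and 3. Their log2 changes lay between -2.70 and -1.93, and all 5 stayed called whichever library was left out. All 5 were called as a peak in pre-molt libraries only, and were in the merged set only through those libraries. The merged set was not remade when a library was left out, so staying called is no separate support. The 6 merged peaks in the 12266 bp that they span were all called lower, as were 9 of the 10 peaks linked to the gene. Only 2 of the 5 lay inside the listed gene, and the other 3 lay past its listed end, in a 3' UTR of the annotation nonetheless.

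Gene evm.TU.CM024108.1.206 had the most downstream peaks called higher. Its 4 peaks lay within 2596 bp and together had 103, 81.8 and 114 CPM in post-molt 1, 2 and 3, against 36.6, 39.8 and 34.3 CPM in pre-molt 1, 2 and 3. The changes were moderate, with log2 values between 1.18 and 1.54 and edgeR adjusted p of at most 0.0188, and 2 of the 4 stayed called without pre-molt 3. All 7 peaks linked to the gene were called higher. These 4 peaks lay beyond 3 kb from the end of the linked gene and within 3 kb of the end of another gene, so the link by nearest start site names a different gene from the one they follow.

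Such differences were common. In 1028 of the 1520 downstream peaks (67.6%) the linked gene was the one that ended within 3 kb. In the other 492 it was not, and 37 of these had no listed gene end within 3 kb. Of the 3' UTR peaks, 380 lay inside the linked gene, 39 within 3 kb past it and 255 in neither place. Where the linked gene ended there, 54 of 1028 downstream peaks were called higher (5.25%) and 42 lower (4.09%), and elsewhere 28 of 492 were called higher (5.69%) and 24 lower (4.88%). Of the 419 3' UTR peaks in or just past the linked gene, 37 were called higher (8.83%) and 22 lower (5.25%), and of the other 255, 13 were called higher (5.10%) and 9 lower (3.53%). Over all merged peaks 6.08% were called higher and 3.86% lower.

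Where the linked gene did end at or contain the gene-end peak, its promoter could be set beside it. Of 1447 such peaks, 1052 had a promoter peak of the same gene. Among 72 called higher, 28 (38.9%) had a promoter peak called higher and none had one called lower. Among 49 called lower, 21 (42.9%) had a promoter peak called lower and none a higher one. Beside 931 uncalled gene-end peaks, 5.48% had a promoter peak called higher and 5.05% one called lower. The mean log2 change of the promoter peaks had a median of 0.73 beside higher, -0.77 beside lower and -0.03 beside uncalled gene-end peaks. Across the 1052 pairs Spearman's rho was 0.44, as a description, since both values come from the same 6 libraries and genes are not replicates. In 44 of the 72 higher and 28 of the 49 lower cases no promoter peak of the linked gene was called. There the change was called at the gene-end peak and not at that gene's promoter peaks. Not every pair sets the end of a gene against its own start. Of the 674 3' UTR peaks, 380 lay inside the linked gene and 75 overlapped its 3' end. These cases and pairs are gene-end peaks, not genes, and peaks of the same gene share its promoter value. The 5 lower peaks of gene evm.TU.CM024119.1.719 are all among the 28.

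**Figure D5:**
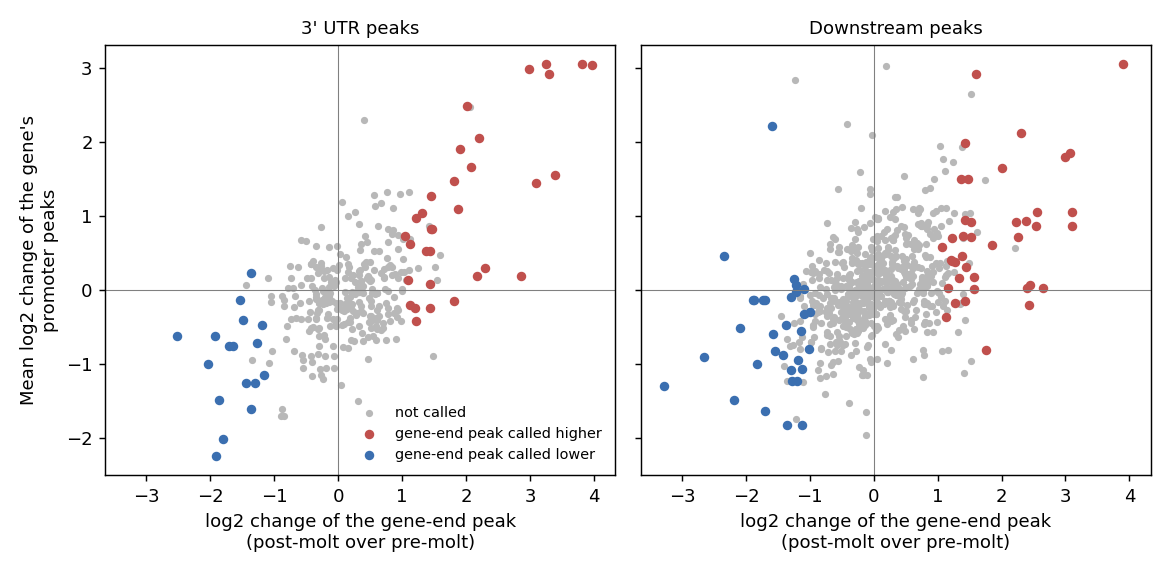
Each point sets the log2 change of a gene-end peak (x, post-molt over pre-molt) against the mean log2 change of the promoter peaks of its gene (y), for 336 3' UTR peaks (left) and 716 downstream peaks (right). Gene-end peaks called higher (red) and lower (blue) lie mostly in the upper right and lower left, and 105 of these 121 have the same sign in both. Peaks of the same gene share its promoter value.

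The peaks of all other classes linked to these genes, promoter peaks included, gave a like picture. They overlap with the promoter peaks compared above and are not separate from them. Peaks of other classes linked to the 79 genes with a higher gene-end peak numbered 661, of which 30.9% were called higher and 0.908% lower. Of the 451 linked to the 48 genes with a lower gene-end peak, 3.33% were called higher and 24.2% lower. Beside uncalled gene-end peaks there were 7982 such peaks, of which 5.81% were called higher and 4.41% lower. A gene with both called and uncalled gene-end peaks counts in both groups. Neighbouring peaks were compared without regard to genes: a merged peak next to the gene-end peak, within 10 kb, was called in the same direction for 69 of the 132 higher peaks (52.3%) and 59 of the 97 lower peaks (60.8%), against 52.8% and 47.5% for higher and lower calls among all merged peaks. Of the 31 lower 3' UTR peaks, 26 had such a neighbour. The lower 3' UTR peaks share genes and stretches, 5 of them lying at gene evm.TU.CM024115.1.298 and 4 at a gene on CM024165.1, and are not independent of each other.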

How the data were processed

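The groups and replicate numbers came from the sample titles, and the replicates are separate muscle samples. Per the submitters' processing notes the authors used BWA and MACS2. The study's methods describe peak calling for molt-period libraries. The sources used here do not say whether the same version and settings made these 6 libraries, how peaks were merged and reads counted, or whether reads were shifted for the Tn5 offset. Duplicates were described as kept there, and if so here, PCR copies count as reads. The authors deposited whole-number counts per merged peak, RPM values made from count plus 1, fold enrichment as a ratio of RPM per base to a uniform background, and per-library peak lists with fold enrichment and −log10 p-value and q-value, used to describe and filter peaks. The deposited log2 fold change, p-value and q-value columns of the authors' own comparison were not used. The peak names inside the lists carry other library numbers than the titles; each list matched the presence signs of the sample it is filed under.

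Counts were tested with edgeR 4.0.16 in R 4.3.3 (quasi-likelihood, stage only, TMM, no filter on low counts, all 104657 peaks, Benjamini-Hochberg, threshold 0.05), tested first on simulated data. DESeq2 1.42.0, limma 3.58.1, other scalings, a count filter, and leaving out each library were alternatives. When a library was left out, the merged peaks stayed as deposited, including those called as a peak in that library only. SE came from the change and its F statistic. Named peaks were, per class and direction, the 6 called peaks with the greatest change whose stages did not overlap and whose higher stage averaged at least 30 reads, the 3 strongest per class, and 6 genes with the most called peaks. Members and lists were chosen with earlier results of these data known. The gene lists by function could not be used, because the deposited tables pair the identifiers with no names and the study names only a few receptor genes, and sequences are not shown because no genome of this build was used. Python 3.11.15, numpy 2.4.6, pandas 2.3.3 and matplotlib 3.10.9 were used. Coordinates are 1-based on the published genome that the CM sequences belong to.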

Additional observations from a re-analysis of the deposited data

How the results depend on the processing

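Leaving out 1 library at a time gave between 16 and 46 3' UTR peaks called higher and 19 to 27 called lower. Of downstream peaks, 32 to 82 were called higher and 23 to 52 lower. Over all merged peaks these fits called 2.29% to 5.62% higher and 1.53% to 3.86% lower. The medians then lay between 0.14 and 0.25 in 3' UTRs and between -0.01 and 0.08 downstream. With peaks present in at least 2 libraries only, 21 3' UTR and 39 downstream peaks were called higher. This left out 29 and 43 higher peaks of 1 library only. Over all merged peaks, 2704 of the 6366 higher peaks were of 1 library only. Lower calls and shares called under this restriction are not given here. The 3' UTR median was then 0.0696 and the downstream median -0.0402. The share of reads in downstream peaks then differed by -0.0103 percentage points (post-molt minus pre-molt), against 0.0382 with all. Centring on the median of all peaks gave medians of 0.0768 in 3' UTRs and -0.0885 downstream. In the nearest downstream class alone, 23 peaks (4.47%) were called higher and 30 (5.84%) lower, against 6.08% and 3.86% over all merged peaks. The strongest 3' UTR peak, at CM024144.1, changed sign with loess offsets (0.0145), and over libraries left out its log2 change lay between -0.757 without pre-molt 2 and 0.0619 without pre-molt 3; the cause was not tested. The replicate numbers did not pair the libraries (correlations of deviations of same-numbered libraries -0.09, -0.10 and -0.03). With the replicate block 41 3' UTR peaks were called higher and 30 lower, 81 and 53 downstream, with no named call changed. Over all merged peaks the fit with the block called 5.53% higher and 3.11% lower. DESeq2 called 57 3' UTR peaks higher and 38 lower, and 83 downstream peaks higher and 88 lower. Over all merged peaks DESeq2 called 6.48% higher and 5.10% lower. Counts of about 50 reads per peak limit what small changes could be called.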

Other observations

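The greatest fitted increase among gene-end peaks lay outside the rule for named peaks and was chosen after its values were seen. The downstream peak at CM024113.1, positions 8543911 to 8544234, held 133, 0 and 144 reads in post-molt 1, 2 and 3, against 8, 1 and 2 reads in pre-molt 1, 2 and 3. The stages overlapped because post-molt 2 had no read there. edgeR called it (log2 change 4.70 ± 0.97 SE, adjusted p = 0.00374).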
